A study of Mus musculus with 12 samples.

Results

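The enzymes that build cholesterol and fatty acids, with the SREBP proteins that control them and the main sterol carriers, were followed in 12 mouse cell samples, each on 1 Affymetrix array. Members were taken by name from a list of 33 genes, as the probe sets whose single symbol in the platform annotation was on that list. This gave 50 probe sets for 28 genes, out of 28898 probe sets with 1 symbol for 17097 genes. Acat2, Pmvk, Srebf1, Abca1 and Scd2 had no such probe set and were not analysed here. Of the 50 probe sets, 47 passed the filter on dim values, and all 28 genes kept at least 1, so 28 of the 12560 genes tested were members.

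The samples formed 4 groups of 3 arrays. B6 were hematopoietic cells labelled wild type, and Ts1Cje were hematopoietic cells of the Ts1Cje mouse, a Down syndrome model that is trisomic for part of chromosome 16. The other groups, titled B6 + Trib1 WT and Ts1Cje + Trib1 WT and called B6 Trib1 and Ts1Cje Trib1 here, were lines of acute myeloid leukaemia (AML) that express Trib1. Trib1 is a pseudokinase that drives myeloid leukaemia. IL-3 at 5 ng/ml and serum at 10% were in the medium of all 4 groups, and the labels name no other agent. Trib1 expression and the leukaemic state came together, so the effects of each cannot be told apart. Animal age, the promoter that drives Trib1, and the number of mice or lines behind the 3 arrays of a group are not given in the labels, so each p-value rests on a spread between arrays that may be technical only. None of the 33 listed genes lies on chromosome 16 in the RefSeq gene table, so none is in the trisomic segment.

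Cells make cholesterol from acetyl-CoA by way of mevalonate, farnesyl diphosphate, squalene and lanosterol, and make fatty acids from the same acetyl-CoA. When sterols in the endoplasmic reticulum (ER) run low, the escort protein SCAP carries SREBP precursors to the Golgi, where they are cut to release a transcription factor that switches on nearly every gene of both routes. INSIG proteins hold SCAP in the ER when sterols are plentiful. Dividing blood and leukaemia cells use both routes for new membrane.

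Values are intensities on a linear scale, given per array in the order of the labels' replicate numbers or as mean ± SD over n = 3 arrays. Array medians lay between 30.5 and 32.0. Differences and folds are on the scale of log2(intensity + 15), which draws those of dim genes towards 0. The threshold for a pass was a limma p under 0.05 after adjustment over all 12560 genes. The 7 blood-cell genes examined were Ptprc, Spn, Coro1a, Laptm5, Vav1 and the progenitor genes Cd34 and Kit. All were above the filter, with summed intensities from 8088 to 9263 over the 12 arrays.

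Promoter sequence from RefSeq (GRCm38.p6), from 250 bases before to 50 after each start, was at hand for 26 of the 33 listed genes in 34 windows. It was searched on both strands for 3 motifs: TCACNCCAC, a form of the sterol regulatory element that SREBP binds, CCAAT, the box bound by the SREBP partner NF-Y, and GGGCGG, the GC box bound by SP factors. A CCAAT box was found in 21 of the 26 genes (80.8%), against 42.5% of the 10127 measured genes with a window. The 26 include Acat2, Pmvk, Srebf1 and Abca1, which were not measured, so the 2 sets are not chosen alike. By window the shares were 64.7% of the members' 34 windows and 37.4% of all 32851, which belong to measured and unmeasured genes. GC boxes were found in 22 of 26 members (84.6%), against 64.3% of measured genes. The sterol element in this strict form was found in 1 member, Hmgcs1 (3.85%), against 1.52% of measured genes. These matches describe letters only. The windows below belong to Hmgcs1, which holds the sterol element, to Mvd, Tm7sf2 and Nsdhl, which were among the largest rises in Ts1Cje cells, to Acss2, which rose most in the leukaemia lines, and to Scap, which went the other way. They are written 5′ to 3′ on the gene's strand, with CCAAT boxes (ATTGG on the opposite strand) and the sterol element in capitals.
Hmgcs1, chr13:119690101-119690400, plus strand: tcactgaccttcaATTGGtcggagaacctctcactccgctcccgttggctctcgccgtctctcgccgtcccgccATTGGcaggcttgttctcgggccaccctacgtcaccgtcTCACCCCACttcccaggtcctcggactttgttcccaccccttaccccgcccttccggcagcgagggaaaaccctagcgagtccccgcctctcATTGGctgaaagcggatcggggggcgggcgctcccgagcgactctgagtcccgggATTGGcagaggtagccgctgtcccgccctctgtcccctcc
Mvd, chr8:122443373-122443672, minus strand: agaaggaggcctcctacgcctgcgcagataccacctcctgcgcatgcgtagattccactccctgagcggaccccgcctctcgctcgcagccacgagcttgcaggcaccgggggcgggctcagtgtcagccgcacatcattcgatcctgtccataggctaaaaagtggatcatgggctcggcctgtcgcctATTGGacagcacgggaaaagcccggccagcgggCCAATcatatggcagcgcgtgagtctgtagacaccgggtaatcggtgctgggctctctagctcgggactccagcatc
Tm7sf2, chr19:6067801-6068100, minus strand: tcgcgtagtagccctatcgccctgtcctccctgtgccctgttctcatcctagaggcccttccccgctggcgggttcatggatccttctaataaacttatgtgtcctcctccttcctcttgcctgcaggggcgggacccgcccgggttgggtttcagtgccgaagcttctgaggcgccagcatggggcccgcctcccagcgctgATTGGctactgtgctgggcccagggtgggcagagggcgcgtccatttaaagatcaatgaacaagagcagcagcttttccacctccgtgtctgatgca
Nsdhl, chrX:72918271-72918570, plus strand: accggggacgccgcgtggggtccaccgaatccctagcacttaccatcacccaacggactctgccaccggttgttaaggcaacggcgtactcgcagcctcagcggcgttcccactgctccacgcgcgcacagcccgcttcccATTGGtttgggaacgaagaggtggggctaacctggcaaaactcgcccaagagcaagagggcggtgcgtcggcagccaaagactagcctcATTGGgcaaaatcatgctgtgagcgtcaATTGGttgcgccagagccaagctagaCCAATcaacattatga
Acss2, chr2:155517793-155518092, plus strand: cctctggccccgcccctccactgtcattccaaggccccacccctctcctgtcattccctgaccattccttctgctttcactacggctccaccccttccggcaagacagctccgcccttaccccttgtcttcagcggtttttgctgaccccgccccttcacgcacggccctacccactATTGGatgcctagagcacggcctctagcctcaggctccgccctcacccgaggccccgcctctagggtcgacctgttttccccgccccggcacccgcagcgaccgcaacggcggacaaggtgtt
Scap, chr9:110333038-110333337, plus strand: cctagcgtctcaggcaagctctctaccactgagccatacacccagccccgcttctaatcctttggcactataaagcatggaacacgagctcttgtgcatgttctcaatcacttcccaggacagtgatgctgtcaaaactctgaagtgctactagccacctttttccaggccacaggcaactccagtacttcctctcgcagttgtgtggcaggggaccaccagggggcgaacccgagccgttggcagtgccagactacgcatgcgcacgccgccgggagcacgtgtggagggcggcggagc
Mvd holds 2 CCAAT boxes in this window, Nsdhl 4, Hmgcs1 4, and Tm7sf2 and Acss2 1 each. Neither of the 2 Scap windows, of which the first is printed, holds one. The printed windows were picked by how their genes moved. Acaca, which rose in Ts1Cje cells, and Elovl6, which rose in both lines, have no CCAAT box in their windows either. Nor do Acat2 and Abca1, which were not measured. Srebf2, which did not pass in any comparison, holds 1, and 1 Insig2 window holds 3. A link between the boxes and the differences was not tested.

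The first comparison, Ts1Cje against B6 cells, asked how the pathway went with the trisomy in cells without Trib1. Most sterol and fatty acid genes were higher in Ts1Cje cells. Of 28 members 20 rose, 1 fell and 7 did not pass, with a median log2 difference of 0.27. Across all genes tested 23.3% rose, 29.3% fell and 52.6% passed either way, with a median of 0.0090. The groups did not overlap, with Ts1Cje higher, for 20 members (28% of all genes) and, with Ts1Cje lower, for 2 (32.3% of all genes). With arrays centred on the median of the kept probe sets, a setting added after the data were seen, 37.6% of all genes rose and 20.2% fell, and 22 members rose and 1 fell.

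**Figure D1:**
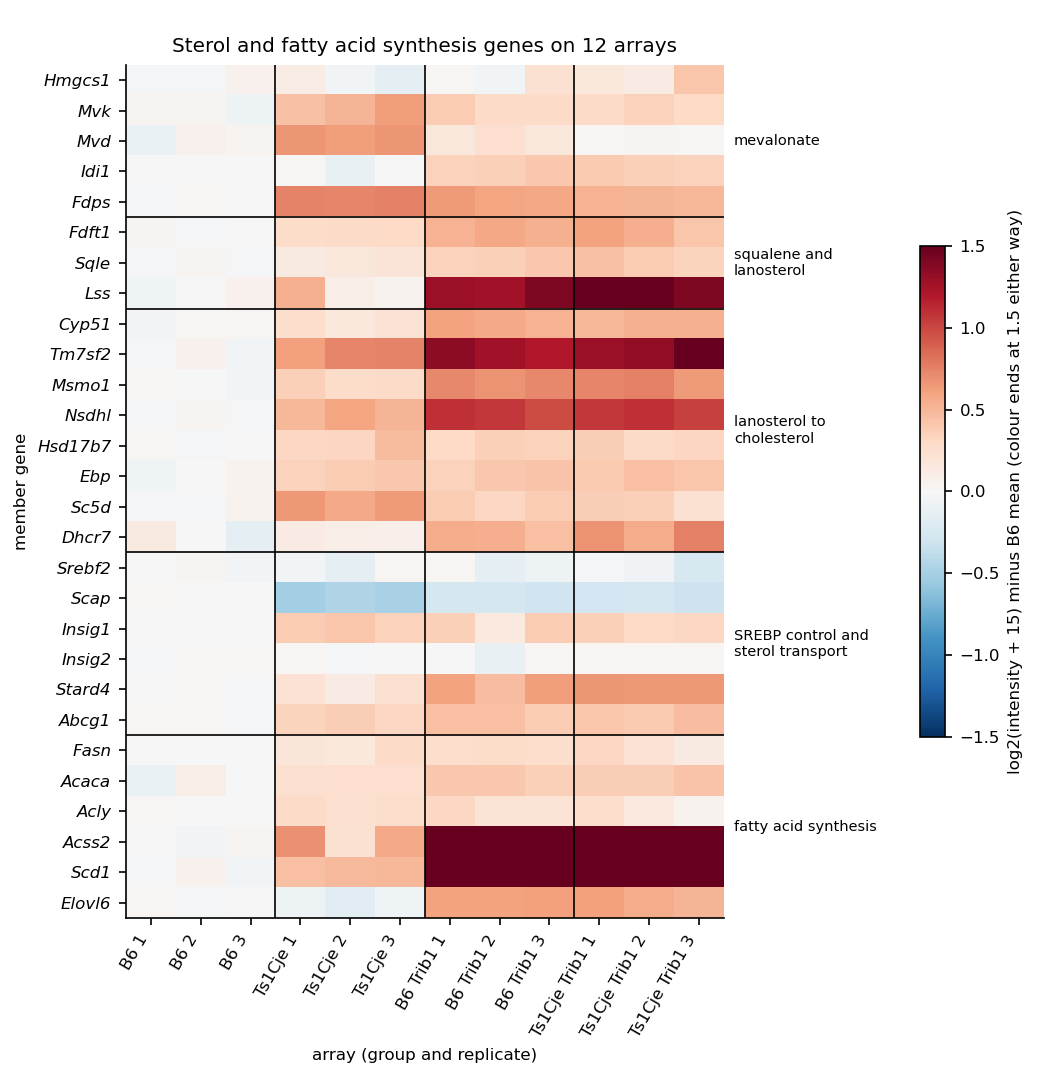
Colour gives log2(intensity + 15) minus the mean of the 3 B6 arrays, for the 28 members (rows, by pathway step) on the 12 arrays (columns), with the colour ending at 1.5 in both directions. Most rows are red in the Ts1Cje columns and in all 6 Trib1 columns, and Scap is blue there. Scd1 and Acss2 pass the end of the scale in all 6 Trib1 columns, and Lss and Tm7sf2 in some Ts1Cje Trib1 columns.

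Early steps of the mevalonate route, which lead to farnesyl diphosphate, held the largest rise. Fdps, which makes farnesyl diphosphate, read 1984, 2035 and 2027 in B6 and 3374, 3358 and 3413 in Ts1Cje. Every Ts1Cje array was above every B6 array, and the difference was 0.74 on the log2 scale (SE 0.033, adjusted p = 1.59e-09), a fold of 1.67. Mvd, which decarboxylates mevalonate diphosphate, read 294, 332 and 325 in B6 and 510, 497 and 511 in Ts1Cje, also without overlap (log2 difference 0.65, adjusted p = 1.1e-07). Mvk, the kinase that acts on mevalonate first, read 136, 136 and 124 against 184, 194 and 212 (0.53, adjusted p = 2.92e-06). Its 2 groups were apart as well. Idi1, which isomerises the 5-carbon unit, stayed between 1371 and 1495 on all 6 arrays (log2 difference -0.035, adjusted p = 0.458). Hmgcs1, the HMG-CoA synthase, was read by 1 dim probe set at 22.9 to 30.2 on these arrays, close to the filter thresholds of 22.0 to 23.5, so a difference would be hard to detect.

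Of the 3 genes from farnesyl diphosphate to lanosterol 2 rose. Fdft1, squalene synthase, went from 486 ± 12.2 to 594 ± 5.36 (log2 difference 0.28, adjusted p = 0.000187). Sqle, squalene epoxidase, went from 838 ± 24.1 to 941 ± 19.1 (0.16, adjusted p = 0.00346). Lss, which closes the sterol rings, did not pass (0.23, adjusted p = 0.0707). It read 68.7, 72 and 76.2 in B6 and 111, 78.8 and 75.5 in Ts1Cje, and 1 high Ts1Cje array set its spread. Without Ts1Cje array 2 or array 3 it passed, at 0.29 (adjusted p = 0.0478) and 0.32 (adjusted p = 0.0244). Both of these fits keep the high array 1, so they do not show a rise apart from it. Ts1Cje arrays 2 and 3, at 78.8 and 75.5, lay close to the highest B6 array.

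Of the 8 genes that turn lanosterol into cholesterol, 7 rose. Tm7sf2, a sterol C14 reductase, read 75.5, 80.8 and 74.2 in B6 and 126, 138 and 138 in Ts1Cje (log2 difference 0.70, SE 0.072, adjusted p = 4.57e-06). Sc5d, the sterol C5 desaturase, read 584, 585 and 616 against 943, 889 and 937 (0.62, adjusted p = 2.42e-07). Nsdhl, an X-linked dehydrogenase that helps remove the C4 methyl groups, read 380, 399 and 383 against 555, 592 and 558 (0.54, adjusted p = 3.73e-07). In all 3 genes the groups lay clear of each other. Ebp, the sterol isomerase, Hsd17b7, a ketosteroid reductase, Msmo1, the C4 methyl oxidase, and Cyp51, which demethylates lanosterol, rose by 0.38, 0.37, 0.30 and 0.21. Dhcr7, which makes cholesterol from 7-dehydrocholesterol, was at 252 ± 24.3 and 270 ± 5.07 and did not pass (0.10, adjusted p = 0.2). Without B6 array 1 its difference was 0.17 (adjusted p = 0.0486). A further Cyp51 probe set gave 0.049 (adjusted p = 0.524), so the Cyp51 rise differs between its probe sets.

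Control and transport genes did not move as 1 block. Scap was the only member that fell: it read 541, 530 and 529 in B6 and 370, 386 and 378 in Ts1Cje, and the highest Ts1Cje array was far below the lowest B6 array (log2 difference -0.48, SE 0.034, adjusted p = 1.33e-07). Srebf2, which encodes the SREBP of the sterol branch, was at 556 ± 14.3 and 539 ± 32.9 (95% interval of the difference -0.19 to 0.09). Insig1, itself an SREBP target, rose from 357 ± 1.09 to 469 ± 10.9 (0.38, adjusted p = 7.12e-05). Insig2 was at 235 ± 4.5 and 234 ± 4.39 on its brightest probe set, whereas a further probe set gave 0.20 (adjusted p = 0.0201). Stard4, a cytosolic sterol carrier, rose by 0.19 and Abcg1, which exports sterol, by 0.34. A further, dimmer Abcg1 probe set gave 0.048 (adjusted p = 0.461).

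Among fatty acid genes 5 of 6 rose. Acss2, which makes acetyl-CoA from acetate, read 87.9, 85.8 and 91.9 in B6 and 151, 106 and 139 in Ts1Cje, a rise of 0.49 (adjusted p = 0.000416) with a wide spread in Ts1Cje. Scd1, the desaturase that makes oleate, read 510, 538 and 499 against 709, 729 and 735 (0.48, adjusted p = 1.36e-06). The 2 groups were well apart. Acly, which makes cytosolic acetyl-CoA from citrate, Acaca, acetyl-CoA carboxylase, and Fasn, fatty acid synthase, rose by 0.27, 0.25 and 0.21. A further, dim Acaca probe set gave 0.045 (adjusted p = 0.436). Elovl6, an elongase of saturated fatty acids, was at 446 ± 8.25 and 416 ± 15.5 (-0.095, adjusted p = 0.0575), with every Ts1Cje array below every B6 array. It passed under 4 alternatives, among them the mean over all its probe sets (-0.13, adjusted p = 0.0193).

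Markers of mature blood cells moved in the same comparison. Of 9 measured macrophage genes 7 rose and 1 fell, and their summed intensity ran from 10414 to 10702 over the B6 arrays and from 14381 to 14723 over the Ts1Cje arrays, against 2696 to 2776 for B6 Trib1 and 1119 to 1230 for Ts1Cje Trib1. Of 8 neutrophil genes 6 rose and 1 fell, with sums of 12755 to 12799, 23619 to 23970, 10876 to 10948 and 6017 to 6273 in the same order. B-cell genes fell in 5 of 6, with sums of 4192 to 4393, 1518 to 1692, 157 to 185 and 165 to 183. Of 7 genes of mast cells and basophils 4 rose and 1 fell, with sums of 2540 to 2589, 4256 to 4498, 18654 to 18988 and 21534 to 22303. Among other genes of these lists, Marco, Ly6g, Igll1 and Prss34 did not pass the filter. Of the other lists, 3 of 5 eosinophil genes and 1 of 6 megakaryocyte genes rose, and 4 of 6 T and NK cell, 4 of 6 megakaryocyte, 1 of 3 erythroid and 1 of 4 stromal genes fell. Genes of growth and division went the other way from the sterol genes, with 7 falls among 10 and 3 not passed (sums of 15571 to 15783 in B6 and 13590 to 13903 in Ts1Cje). The part of these cell types in the members' differences was not tested, and in bulk RNA more cells of a type and more RNA per cell cannot be told apart.

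The second comparison, Ts1Cje Trib1 against B6 Trib1, asked the same of the leukaemia lines. Here the members were near the same level in both genotypes. Acss2 rose, Mvd fell and the other 26 of 28 did not pass, with a median log2 difference of -0.0016. Across all genes 11.9% rose, 9.63% fell and 21.5% passed either way. The groups lay apart for 2 members upwards (19.6% of all genes) and 2 downwards (16.9%).

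Acss2 read 479, 464 and 510 in B6 Trib1 and 639, 658 and 629 in Ts1Cje Trib1. All Ts1Cje Trib1 arrays were higher, by 0.40 (SE 0.087, adjusted p = 0.0052), and its further probe set gave 0.49 (adjusted p = 0.00339). Mvd read 359, 379 and 358 against 323, 326 and 321, a fall of 0.17 on the log2 scale (adjusted p = 0.0163). That fall did not pass without B6 Trib1 array 2 (adjusted p = 0.0735). A further Mvd probe set gave -0.18 and did not pass (adjusted p = 0.0591). Lss, at -0.02 to 0.42, and Acly, at -0.19 to 0.02, had the 95% intervals that reached furthest up and down among the members that did not pass, whose estimates ran from -0.095 to 0.20. Fdps was at 3071 ± 62.1 and 2874 ± 25.5, with no overlap but an adjusted p of 0.0539, and it passed under 4 alternatives, among them no filter (adjusted p = 0.031). Without Ts1Cje array 1 Lss passed too, at 0.20 (adjusted p = 0.0209). Scap was alike in means, at 438 ± 5.7 and 435 ± 9.76 (95% interval -0.08 to 0.07). Macrophage and neutrophil markers fell in 8 of 9 and 8 of 8 cases between the same groups, with 1 rise among the macrophage genes. Eosinophil genes fell in 4 of 5, megakaryocyte genes in 4 of 6 and stromal genes in 2 of 4. Of 7 genes of mast cells and basophils 3 rose and 2 fell, and of 3 erythroid genes 1 rose and 1 fell. B-cell genes and T and NK cell genes rose in 1 of 6 each. The part of these markers was not tested.

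**Figure D2:**
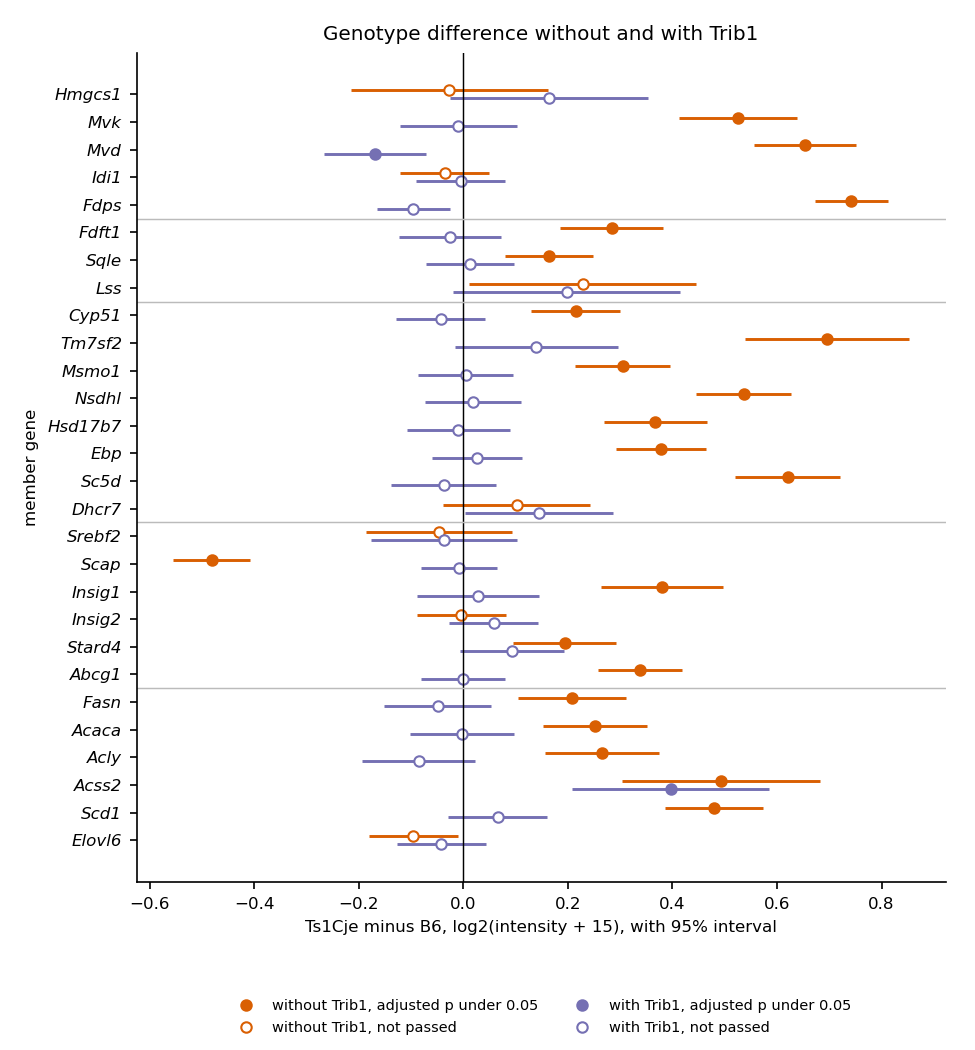
Points are log2 differences between Ts1Cje and B6 for each of the 28 members, without Trib1 (orange) and with it (purple), bars are 95% intervals, and filled points passed at an adjusted p under 0.05. Without Trib1 20 members lie to the right and pass, and with Trib1 the points lie between -0.17 (Mvd) and 0.40 (Acss2).

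A test of the difference between those differences, the interaction, asked whether the genotype effect itself changed with Trib1. It was negative, meaning a smaller or opposite genotype effect with Trib1, for 18 of 28 members and positive for Scap alone, with 9 not passed and a median of -0.28. Of all genes 20.2% were negative and 28.4% positive, with 48.6% passing either way. Centred on the kept probe sets, 29.5% of all genes were negative and 19.2% positive, against 19 and 1 of the members. The 6 largest were those of Fdps (-0.84, adjusted p = 1.19e-08), Mvd (-0.82), Sc5d (-0.66), Tm7sf2 (-0.56), Mvk (-0.53) and Nsdhl (-0.52, adjusted p = 1.43e-05). Scap was at 0.47 (SE 0.048, adjusted p = 4.38e-06), as its genotype difference of -0.48 without Trib1 became -0.0081 with it. Idi1, Lss, Dhcr7, Srebf2, Insig2 and Elovl6 had interactions between -0.030 and 0.063 that did not pass, and neither did Hmgcs1 (0.19) or Stard4 (-0.10). Leaving out B6 Trib1 array 2 brought Stard4 to -0.15 (adjusted p = 0.0486). Further Stard4 probe sets gave -0.26 (adjusted p = 0.0242) and -0.13 (adjusted p = 0.497). Acss2 kept its genotype difference, at 0.49 and 0.40, with an interaction of -0.096 (95% interval -0.36 to 0.17). Without Ts1Cje array 2, the low one of its group, that interaction was -0.23 (adjusted p = 0.018). Sqle passed narrowly (-0.15, adjusted p = 0.0382), and 8 of the 12 arrays, left out in turn, ended its call (adjusted p up to 0.0895).

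B6 Trib1 against B6 asked how the pathway stood in a leukaemia line without the trisomy. Nearly all members were higher in the line. Of 28, 24 rose, 1 fell and 3 did not pass, with a median log2 difference of 0.39. Among all genes 34.1% rose, 31.1% fell and 65.2% passed either way, with a median of 0.030. The groups did not overlap for 24 members upwards (38.6% of all genes) and 1 downwards (34%). Centring on the kept probe sets moved the median of all genes to 0.13 and the members' median to 0.50, and then 50.6% of all genes rose and 21.9% fell, against 24 and 1 of the members.

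Acss2 and Scd1, both of the fatty acid group, had the largest differences of the members. Acss2 went from 87.9, 85.8 and 91.9 to 479, 464 and 510, a fold of 4.82 (log2 difference 2.27, SE 0.087, adjusted p = 6.6e-11). Scd1 went from 510, 538 and 499 to 1772, 1775 and 1708, a fold of 3.33 (1.74, adjusted p = 8.03e-13). In both, each line array was more than 3 times the highest array without Trib1. Elovl6 rose by 0.61, Acaca by 0.39, Fasn by 0.27 and Acly by 0.24.

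Among sterol genes the largest differences were those of Lss, Tm7sf2 and Nsdhl. Lss went from 68.7, 72 and 76.2 to 197, 194 and 216 (1.31, adjusted p = 8.32e-08). Tm7sf2 went from 75.5, 80.8 and 74.2 to 218, 204 and 195 (1.26, adjusted p = 3.91e-09). Nsdhl went from 380, 399 and 383 to 844, 823 and 778 (1.05, adjusted p = 1.06e-10). These were the 3 sterol genes at or above a fold of 2. Msmo1 read 1051, 1036 and 997 in B6 and 1697, 1643 and 1710 in B6 Trib1 (0.70), and the other 12 measured enzymes of the sterol route were between 0.068 (Hmgcs1, not passed) and 0.60 (Fdps). Mvd had the smallest rise that passed among them, 0.20 (adjusted p = 0.00183). Scap fell by 0.28 on the log2 scale (adjusted p = 1.02e-05), Srebf2 did not pass (-0.064), and Insig1, Abcg1 and Stard4 rose by 0.29, 0.43 and 0.56. Insig2 was at -0.029 on its brightest probe set, with further ones at -0.46 (adjusted p = 0.0489) and 0.29 (adjusted p = 0.0015), so its direction is not settled.

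**Figure D3:**
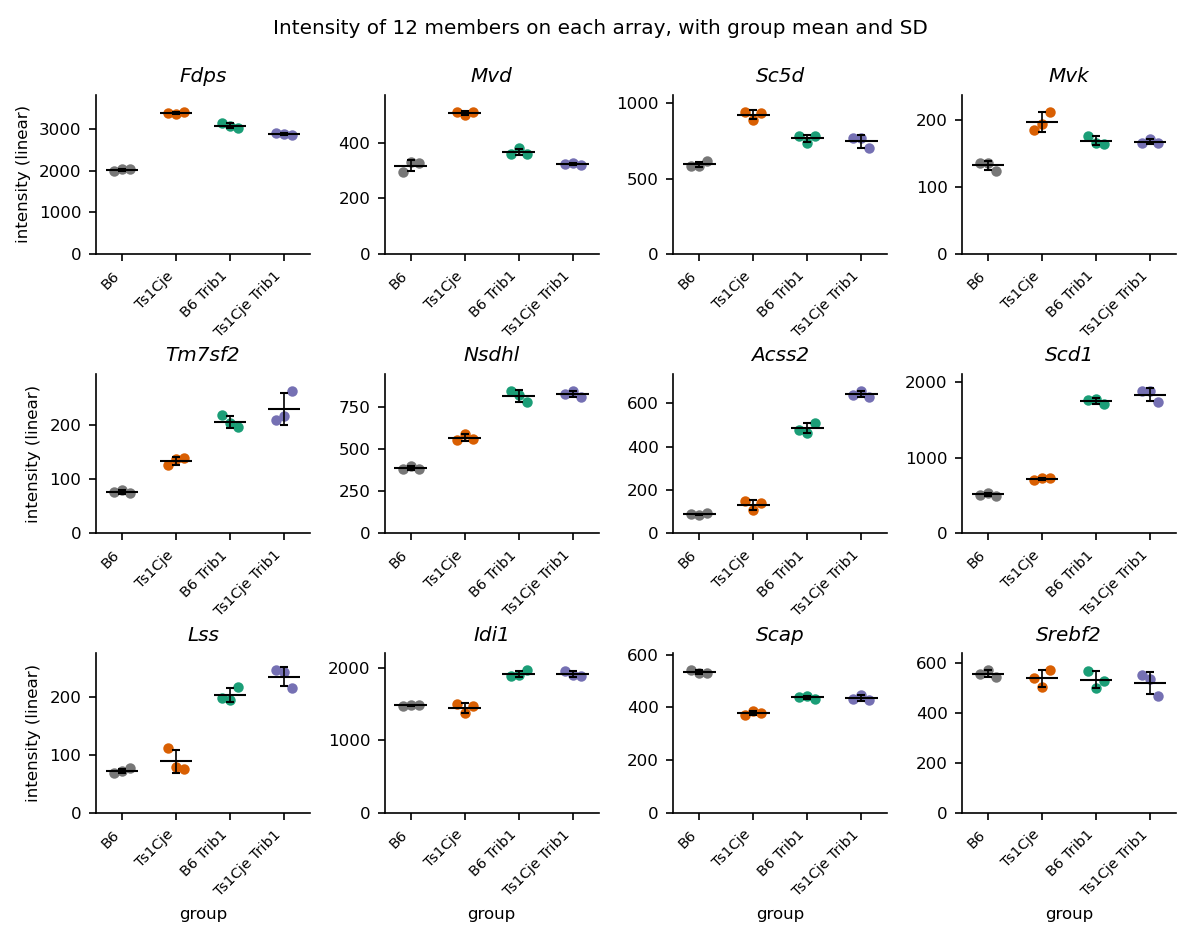
Points are the linear intensities of 12 members on the 3 arrays of each group, with the group mean (long bar) and SD (capped bar), and each axis starts at 0. Fdps, Mvd, Sc5d and Mvk are highest in Ts1Cje, Acss2, Scd1, Lss, Nsdhl and Tm7sf2 are highest in the Trib1 lines, and Scap is lowest in Ts1Cje.

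Ts1Cje Trib1 against Ts1Cje asked the same in the trisomic background. Of 28 members 16 rose, 4 fell and 8 did not pass, with a median log2 difference of 0.21. All genes gave 34.1% higher, 26.8% lower and 60.8% either way, with a median of 0.022. Without overlap were 18 members upwards (35.7% of all genes) and 4 downwards (28.5%).

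Acss2 went from 151, 106 and 139 to 639, 658 and 629 (2.17, adjusted p = 5.71e-11) and Scd1 from 709, 729 and 735 to 1886, 1886 and 1733 (1.32, adjusted p = 6.83e-12). Lss went from 111, 78.8 and 75.5 to 246, 242 and 216 (1.28, adjusted p = 7.36e-08). Tm7sf2 went from 126, 138 and 138 to 209, 216 and 263 (0.71, adjusted p = 1.19e-06). Elovl6 went from 424, 399 and 427 to 693, 663 and 643 (0.66, adjusted p = 4.17e-09). All 5 kept the line arrays above every array without Trib1, as in the B6 background.

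In each of the 4 genes that fell, Ts1Cje had the highest mean of the 4 groups. Mvd went from 510, 497 and 511 to 323, 326 and 321 (-0.62, adjusted p = 3.28e-08), back to the B6 range of 294 to 332. Fdps went from 3374, 3358 and 3413 to 2896, 2879 and 2846 (-0.23, adjusted p = 2.59e-05), still above B6. Sc5d read 772, 768 and 699 in the line (-0.30, adjusted p = 6.68e-05) and Mvk 165, 171 and 165 (-0.21, adjusted p = 0.00262). For these last 2 genes the probe sets disagreed. Further Sc5d probe sets gave 0.16 (adjusted p = 0.0267) and -0.092 (adjusted p = 0.0516), and a further Mvk probe set gave 0.095 (adjusted p = 0.143), whereas both Mvd probe sets fell. Averaged over their probe sets, neither Sc5d (-0.076) nor Mvk (-0.060) passed.

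Scap rose in this background by 0.20 (adjusted p = 0.000177) and Hmgcs1, though dim, by 0.26 (adjusted p = 0.0201). The Hmgcs1 call was lost without Ts1Cje Trib1 array 3 (0.17, adjusted p = 0.104) or Ts1Cje array 3 (0.20, adjusted p = 0.0912), and the Acaca call (0.13, adjusted p = 0.0212) without Ts1Cje Trib1 array 3 (adjusted p = 0.0752). Acly did not pass (-0.11, adjusted p = 0.0688) but did without Ts1Cje Trib1 array 1 (-0.17, adjusted p = 0.0098). Fasn, Ebp, Hsd17b7 and Insig1 were within 0.06 of 0 on the log2 scale and did not pass. For Hsd17b7 this held on the brightest probe set only. A further Hsd17b7 probe set fell by 0.43 (adjusted p = 8.34e-05), and the mean over both fell by 0.24 (adjusted p = 0.000239). That further Hsd17b7 probe set also gave no call in B6 Trib1 against B6 (0.063, adjusted p = 0.428). Both comparisons of a line with cells differ in macrophage markers, which fell in 8 of 9 and 9 of 9 cases, in B-cell markers, which fell in 5 of 6 in each, and in mast cell and basophil markers, which rose in 7 of 7 in each. Neutrophil markers fell in 6 of 8 and 8 of 8, with 1 rise in the B6 background. Megakaryocyte markers rose in 6 of 6 in each, with sums of 6895 to 7163 in B6, 6098 to 6287 in Ts1Cje, 13241 to 13564 in B6 Trib1 and 11064 to 11769 in Ts1Cje Trib1. Growth and division genes rose in 6 and fell in 2 of 10 in the B6 background and rose in 7 and fell in 1 in the Ts1Cje background. T and NK cell markers rose in 1 and fell in 4 of 6 in each. In the order of the megakaryocyte sums, theirs were 708 to 746, 310 to 346, 1191 to 1203 and 1732 to 1833. Stromal and adipocyte markers rose in 1 and fell in 2 of 4 in each. Their sums in that order were 2270 to 2375, 2015 to 2316, 301 to 352 and 156 to 170. These 4 were Pdgfrb, Dcn, Adipoq and Fabp4, as Col1a1, Col1a2, Col3a1 and Plin1 had no kept probe set. The median log2 difference of the 4 was -0.22 in the B6 background and -0.10 in the Ts1Cje background. Whether stromal or fat cells were present was not tested. Erythroid markers rose in 3 of 3 and 2 of 3. Eosinophil markers rose in 3 of 5 in the B6 background, and rose in 1 and fell in 3 in the other. The part of these cell types was not tested.

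**Figure D4:**
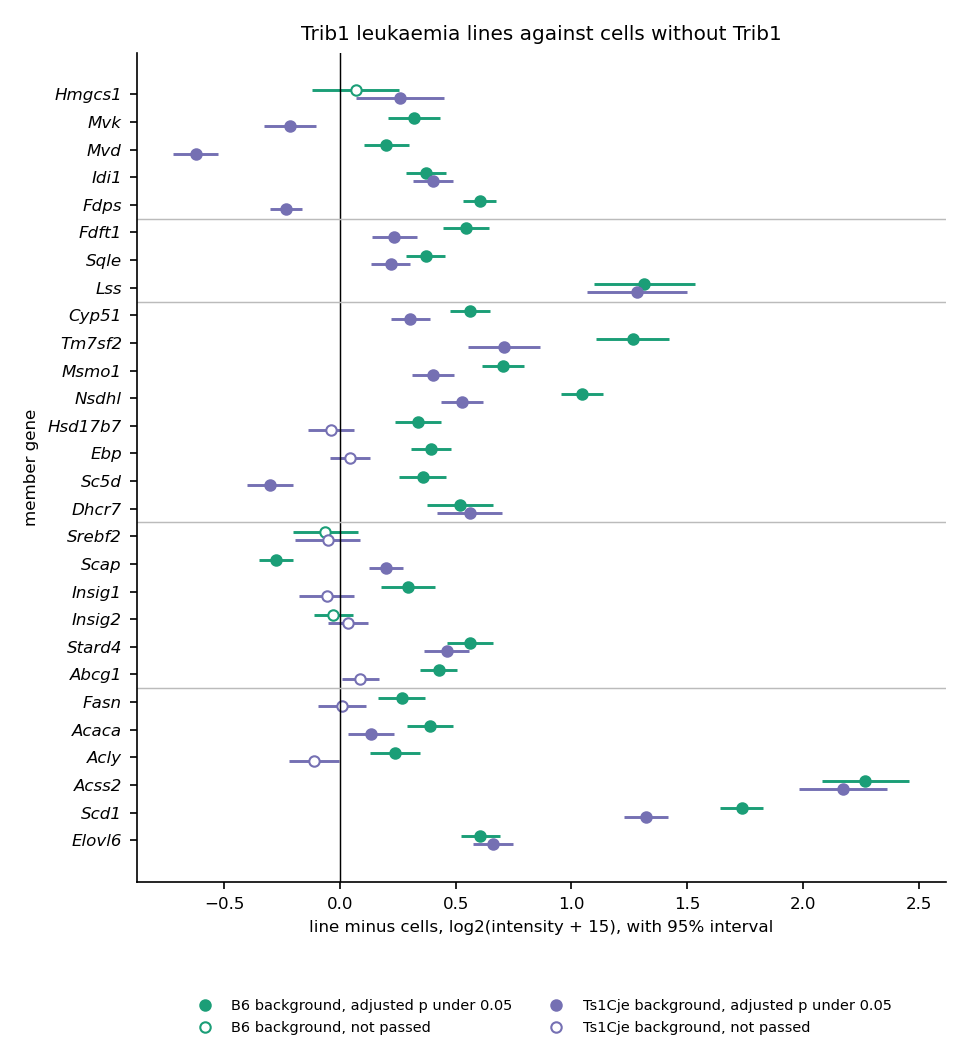
Points are log2 differences between a Trib1 line and cells without Trib1 for each of the 28 members, in the B6 (green) and Ts1Cje (purple) backgrounds, bars are 95% intervals, and filled points passed at an adjusted p under 0.05. Acss2, Scd1 and Lss are far to the right in both. Among members that passed in both backgrounds, Mvd, Fdps, Sc5d, Mvk and Scap lie on opposite sides of 0. Scap is to the left in B6 and to the right in Ts1Cje, and the others are the reverse.

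Placed in order, the B6 mean was the lowest of the 4 groups for 22 of 28 members. Ts1Cje Trib1 had the highest mean for 12, B6 Trib1 and Ts1Cje for 7 each, and B6 for 2, Srebf2 and Scap. Within the members the patterns differed in kind. Fdps, Mvd, Sc5d, Mvk, Insig1, Hsd17b7, Acly and Scap had means furthest from B6 in the Ts1Cje cells. Of these, Insig1, Hsd17b7 and Acly did not pass between Ts1Cje cells and their line. The same held for Ebp, Abcg1 and Fasn, whose means were above B6 in the other 3 groups. Idi1, Lss, Elovl6 and Dhcr7 were raised in both lines without passing in Ts1Cje cells. Fdft1, Cyp51, Msmo1, Nsdhl, Tm7sf2, Scd1 and Stard4 were intermediate in Ts1Cje. Of the 19 further kept probe sets of members, 18 had the sign of their gene in Ts1Cje against B6, and 11 passed in that direction. In B6 Trib1 against B6 these counts were 17 and 16, in Ts1Cje Trib1 against Ts1Cje 16 and 10, and between the lines 14 and 1. For the interaction they were 15 and 8, and further probe sets of Cyp51 (0.042 and -0.069), Abcg1 (-0.11) and Acaca (-0.11) did not pass there.

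Genes that neighbour the pathway were counted from lists of their own. For these lists the shares of all genes serve as the background. In Ts1Cje against B6 23.3% of all genes rose and 29.3% fell. The shares were 34.1% and 31.1% in B6 Trib1 against B6, and 34.1% and 26.8% in Ts1Cje Trib1 against Ts1Cje. Whether these small lists differ from those shares was not tested. Of 10 isoprenoid branch genes, which take farnesyl diphosphate to dolichol, coenzyme Q and prenylated proteins, 1 rose and 4 fell in Ts1Cje against B6, and 1 rose and 3 fell in B6 Trib1 against B6. In the Ts1Cje background 4 rose and 4 fell in the line. Coq2, of coenzyme Q synthesis, fell from 353 to 249 without Trib1 (-0.48, adjusted p = 6.52e-06) while Fdps, which lies upstream of it, rose. Nus1, a subunit of the dolichol-making enzyme, rose by 0.15 in Ts1Cje cells and fell by 0.44 in B6 Trib1, and Pdss2 fell in both by 0.21 and 0.65.

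Of 11 genes of SREBP processing and sterol sensing 2 rose and 4 fell in Ts1Cje against B6. In B6 Trib1 against B6 4 rose and 5 fell, and in Ts1Cje Trib1 against Ts1Cje 5 rose and 6 fell. Syvn1, an ER ubiquitin ligase, fell from 900 to 483 in B6 Trib1 (-0.88), and Erlin2, which helps degrade ER proteins, fell by 0.62. Rnf139, a sterol-responsive ligase, rose by 0.30.

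Of 11 genes of cholesterol uptake, transport and ester storage 7 rose and 1 fell in Ts1Cje against B6. In the Ts1Cje background 6 fell and 1 rose in the line. Npc1, which moves cholesterol out of lysosomes, had means of 304 and 373 in B6 and Ts1Cje cells and of 93.9 and 76.9 in their lines. Its falls in the lines, of 1.55 and 2.08 on the log2 scale, went against the rise of the synthesis genes. Scarb1, a lipoprotein receptor, rose by 0.47 in Ts1Cje cells and fell by 0.32 between the lines, and Nceh1, which hydrolyses cholesterol esters, rose by 0.37 in Ts1Cje cells. Of 18 further fatty acid and glycerolipid genes 9 rose and 2 fell in Ts1Cje against B6, and 12 rose and 3 fell in B6 Trib1 against B6. Dgat1 and Dgat2, which make triglyceride, rose by 0.93 and 0.87 in Ts1Cje cells and fell by 0.56 and 0.81 between the lines. Lpcat3, which puts polyunsaturated chains into phospholipids, followed the members, with a rise of 0.54 in Ts1Cje cells, 1.06 in B6 Trib1 and 0.55 in Ts1Cje Trib1.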

How the data were processed

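Expression was measured on 12 arrays from 100 ng of total RNA each, grouped by the sample titles. The authors deposited 1 linear intensity per probe set, credited to MAS5 per the submitters' processing notes. The arrays have perfect-match probes only and MAS5 uses mismatch probes, so the summary and scaling behind the values are unsettled. No version, scaling target or genome build is given in the sources used here. No further scaling was applied. Of 45141 probe sets, 28898 had 1 symbol, 551 several, 15588 none and 104 were controls, and only the first were tested. A probe set was kept when above its array's 40th percentile in at least 3 arrays (20066 probe sets), and the brightest kept probe set on average stood for a gene. Values were taken as log2(intensity + 15).

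The 12 arrays entered 1 limma 3.58.1 model with a mean for each group (R 4.3.3, two-sided, Benjamini-Hochberg over 12560 genes, adjusted p under 0.05), after a test on simulated data. A gene's further probe sets were tested with adjustment over all kept probe sets. Members, lists and rules were chosen with earlier results of these data known. Named with values on every array were the 6 members with the largest differences that passed without overlap in each pairwise contrast, plus the 6 largest interactions. Up to 3 genes with the smallest adjusted p were named from each neighbouring list. Any other gene or probe set was named after its values were seen. Alternatives covered the offset, scaling, filter, probe set choice, variance model, samples fitted, replicate block and each array left out. The number of arrays limits the precision.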

Additional observations from a re-analysis of the deposited data

Results flagged for a closer look

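In 19 of 28 members the genotype difference itself differed with and without Trib1, by limma's interaction term after adjustment over all 12560 genes, where 48.6% of all genes passed. In the mevalonate steps the interactions were -0.84 for Fdps, -0.82 for Mvd and -0.53 for Mvk. From farnesyl diphosphate to lanosterol they were -0.31 for Fdft1 and -0.15 for Sqle (adjusted p = 0.0382). From lanosterol to cholesterol they were -0.66 for Sc5d, -0.56 for Tm7sf2, -0.52 for Nsdhl, -0.38 for Hsd17b7, -0.35 for Ebp, -0.30 for Msmo1 and -0.26 for Cyp51. Among control and transport genes they were -0.35 for Insig1, -0.34 for Abcg1 and 0.47 for Scap. Among fatty acid genes they were -0.41 for Scd1, -0.35 for Acly, -0.26 for Fasn and -0.25 for Acaca.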

How the results depend on the processing

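Under the alternatives the counts of members that rose or fell stayed within 1.5 times of those reported, except where the count is small. In Ts1Cje against B6 the falls went from 1 to 2 with the stricter filter at the 60th percentile, with the mean of all probe sets and with a variance trend, and lay between 1 and 2 when each array was left out. Between the lines the falls went from 1 to 2 without a filter, with the stricter filter, with the mean of all probe sets and with a variance trend. The rises there went from 1 to 2 with the mean of all probe sets. With arrays left out they lay between 1 and 2, and the falls between 0 (without B6 Trib1 array 2) and 1. Further probe sets had the other sign from their gene in 15 cases over the 5 contrasts. Neither passed in 10 of these. The other 5, where the gene or the probe set passed, were Insig2 in Ts1Cje against B6 (0.20) and in B6 Trib1 against B6 (0.29), Mvk (0.095) and Sc5d (0.16) in Ts1Cje Trib1 against Ts1Cje, and the Cyp51 interaction (0.042). With the mean of all probe sets that interaction was -0.095 (adjusted p = 0.159). The causes were not tested. With a replicate block, the falls in Ts1Cje Trib1 against Ts1Cje were 5 in place of 4, as Acly passed, and the negative interactions 17 in place of 18, as Sqle did not (adjusted p = 0.0615). It changed no other call. The numbers do not pair the arrays: same-numbered deviations correlated at -0.45 to 0.35, and 3 of 12 arrays were matched best by their own number. Signal limits Hmgcs1, which was above the 40th percentile on 11 of 12 arrays.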
